A study of Mus musculus with 7 samples.

Results

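The neuronal cytoskeleton genes examined here were 10 genes chosen by name, Nefl, Nefm, Nefh, Ina, Map2, Mapt, Map1a, Map1b, Tubb3 and Stmn2. They were taken by gene symbol from the raw counts of 7 RNA sequencing libraries, and all 10 of 10 symbols were found among 46333 genes. The libraries came from neurons isolated from whole brains of adult female mice by magnetic removal of cells bound by antibodies to microglia, oligodendrocytes and astrocytes. There were 3 cre+ libraries, from il4ra fl/fl animals with Syn cre, and 4 cre- libraries, from littermates that are il4ra fl/fl without Syn cre, so that every animal carried the floxed allele. Syn cre is a Cre recombinase driven by the synapsin 1 promoter, which limits the deletion to neurons. Il4ra encodes the alpha chain of the interleukin-4 receptor, and the comparison asks how its loss in neurons relates to transcript levels. The controls did not carry Cre, so an effect of Cre itself and the loss of Il4ra cannot be told apart.

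The cytoskeleton of a neuron is built from neurofilaments, microtubules and actin. Neurofilaments are intermediate filaments that fill large axons and set their calibre, and they assemble from a light, a medium and a heavy chain together with alpha-internexin. Microtubules are hollow polymers of alpha- and beta-tubulin that carry transport along axons and dendrites, and microtubule-associated proteins bind and stabilize them, whereas stathmins bind free tubulin and favor disassembly. The 10 genes are widely used as neuronal markers, since other cells of the brain express most of them weakly or not at all.

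All 10 neuronal cytoskeleton genes had a lower mean in cre+ than in cre- libraries. The direction turned for 8 of them when libraries were scaled to other neuronal genes, a choice made after seeing the data. The scaling genes include Syn1 and Snap25, which the paper reports as downregulated in cre+ neurons. That scaling moved the median log2 fold change of all genes to 0.82 and that of the 10 genes to 0.34. The 4 intermediate filament genes had log2 fold changes (cre+ minus cre-) of -0.70 to -0.90, and the 6 genes of the microtubule system had -0.25 to -0.46. Nefh, the heavy neurofilament chain, had the smallest p, at a level 45.4% lower in cre+ libraries. The edgeR quasi-likelihood test called none of the 10 after Benjamini-Hochberg adjustment, and DESeq2 called Nefh and Ina lower.

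The promoters of 5 of the 10 genes were found in the RefSeq promoter table (GRCm38.p6), Ina, Map2, Map1a, Map1b and Tubb3, and each window ran from 250 bases before to 50 bases after the annotated start. Those of Ina, Map1b and Tubb3 are shown because they stand for the filament, the microtubule-associated and the tubulin genes. They lie at chr19:47014431-47014730 (Ina, plus strand), chr13:99516553-99516852 (Map1b, minus strand) and chr8:123411303-123411602 (Tubb3, plus strand) and are written 5′ to 3′ on the strand of the gene. Capitals mark matches, on either strand, to GGGCGG (the GC box bound by Sp1-type factors, CCGCCC on the other strand), TATAAA (the TATA box) and GGACAGC (the right-hand part of RE1, the element bound by the repressor REST, GCTGTCC on the other strand).
Ina: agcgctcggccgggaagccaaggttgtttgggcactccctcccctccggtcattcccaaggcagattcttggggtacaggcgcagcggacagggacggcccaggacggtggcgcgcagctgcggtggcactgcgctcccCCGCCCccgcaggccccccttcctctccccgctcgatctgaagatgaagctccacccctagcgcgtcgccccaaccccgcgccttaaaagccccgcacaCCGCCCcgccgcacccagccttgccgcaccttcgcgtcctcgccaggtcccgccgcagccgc
Map1b: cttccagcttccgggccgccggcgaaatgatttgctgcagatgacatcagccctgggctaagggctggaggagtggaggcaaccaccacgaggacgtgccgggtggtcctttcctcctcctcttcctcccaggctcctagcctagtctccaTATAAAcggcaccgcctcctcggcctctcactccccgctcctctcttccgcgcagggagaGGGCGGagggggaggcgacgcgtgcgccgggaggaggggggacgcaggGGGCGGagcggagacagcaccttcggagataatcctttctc
Tubb3: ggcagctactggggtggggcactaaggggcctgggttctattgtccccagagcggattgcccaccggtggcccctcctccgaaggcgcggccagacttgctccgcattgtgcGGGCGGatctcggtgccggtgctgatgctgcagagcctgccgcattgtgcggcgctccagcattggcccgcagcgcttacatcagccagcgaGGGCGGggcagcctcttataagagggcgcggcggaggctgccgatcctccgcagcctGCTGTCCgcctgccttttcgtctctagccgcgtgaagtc
All 5 windows held GGGCGG, which was present in 35.7% of 32851 RefSeq promoter windows of the same length. In Ina the matches began at -111 and -12 relative to the start, in Map1b at -39 and 9, and in Tubb3 at -138 and -46. TATAAA was found in Map1b alone, at -99, against 13.6% of all windows. GGACAGC was found in Map2 and Tubb3, against 6.56% of all windows, and the left-hand part of RE1, TTCAGCACC (0.371% of all windows), was found in none of the 5. The cAMP response element TGACGTCA, present in 1.79% of all windows, was not found either. The windows were rich in G and C, at 65.7% to 77.7% against a median of 52.7% over all windows, and held 23 to 37 CG pairs against a median of 7. A match is a description of letters and no evidence of binding.

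The libraries held 68213223 to 94376841 counts each, and the 10 genes together took 0.124%, 0.199% and 0.220% of them in cre+ replicates 1 to 3, against 0.292%, 0.246%, 0.274% and 0.227% in cre- replicates 1 to 4. The least counted member in any library was Nefh with 1021 counts, so that counting error was small beside the spread between libraries. Mitochondrially encoded genes took 0.373% to 0.592% of counts in cre+ libraries, against 0.217% to 0.328% in cre- libraries, and their part in the results was not tested. Levels are given as CPM, read counts relative to the library total after TMM correction. Il4ra, the targeted gene, was at 29.5, 28.7 and 24.4 CPM in cre+ libraries, against 20.03, 23.2, 29.6 and 22.4 CPM in cre- libraries (log2 fold change 0.21 ± 0.15, adjusted p = 0.487 in edgeR). The deletion removes a few of its exons, and a count over the whole gene does not check the genotype labels.

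Neuronal markers were detected in every library, and so were markers of other cells. Rbfox3, which encodes the neuronal nuclear antigen NeuN, was at 18.03, 52.5 and 56.1 CPM in cre+ libraries, against 112.0, 92.5, 93.8 and 50.7 CPM in cre- libraries. Cldn5, a tight junction gene of brain endothelium, was at 3848, 1636 and 1783 CPM in cre+ libraries, against 1869, 1647, 1752 and 2114 CPM in cre- libraries. Cldn5 had the smallest log2 fold change, 0.39 ± 0.29, of the 10 endothelial markers described below. All 10 lay above 0, with a median of 0.64. The magnetic step as described carries no antibody to endothelial cells. The paper checked the isolates by flow cytometry, with an endothelial antibody among those used, and reports a high neuronal purity. In such bulk RNA, fewer neurons and less RNA of these genes per neuron cannot be told apart.

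Among the filament genes, Nefh showed the clearest separation of the genotypes. Nefh (ENSMUSG00000020396, chromosome 11, 4888754 to 4898064, minus strand, GRCm39), the heavy chain whose side arms extend from the filament, was at 14.2, 13.8 and 16.2 CPM in cre+ libraries, against 30.1, 24.5, 22.1 and 31.4 CPM in cre- libraries. Its highest cre+ library lay 26.5% below its lowest cre- library, and the cre+ libraries varied little. Cre+ libraries averaged 14.8 ± 1.29 CPM (SD, n = 3) and cre- libraries 27.0 ± 4.44 CPM (SD, n = 4). This gave a log2 fold change of -0.87 ± 0.16 (SE), with adjusted p = 0.0939 in edgeR and 0.000222 in DESeq2. A two-sided exact permutation test of the 35 splits of 7 libraries returned p = 0.0286, which is the smallest it can reach. Nefh kept its DESeq2 call in each of the 7 fits that left out a library, with adjusted p of 7.43e-05 to 0.0101. Of its exon bases, 21.1% (861 bases) overlap Ap1b1 on the opposite strand, an adaptor subunit gene with a mean of 9488 counts per library. Whether counting used strand is not given, and Ap1b1 itself had a log2 fold change of -0.02 ± 0.11.

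Ina (ENSMUSG00000034336, chromosome 19, 47003137 to 47013766, plus strand), which encodes alpha-internexin, the filament protein that appears early in developing neurons, was at 41.1, 44.7 and 54.5 CPM in cre+ libraries, against 98.9, 72.5, 81.6 and 55.7 CPM in cre- libraries. The groups did not overlap, but cre+ replicate 3 and cre- replicate 4 lay only 2.17% apart. Cre+ libraries averaged 46.7 ± 6.93 CPM (SD, n = 3) and cre- libraries 77.2 ± 18.04 CPM (SD, n = 4). The difference was -0.72 ± 0.19 in log2 fold change, and its adjusted p was 0.109 in edgeR and 0.0142 in DESeq2, with an exact permutation p of 0.0571. The DESeq2 call was lost when cre+ replicate 1, cre+ replicate 2 or cre- replicate 3 was left out. Ina shares 526 exon bases (15.9%) with Nt5c2 on the opposite strand, whose log2 fold change was 0.24 ± 0.09.

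Nefl (ENSMUSG00000022055, chromosome 14, 68321312 to 68326544, plus strand), the light chain that forms the filament core, was at 25.2, 59.8 and 69.6 CPM in cre+ libraries, against 138.0, 65.2, 74.6 and 56.3 CPM in cre- libraries. A single library stood low in cre+ (replicate 1) and a single one high in cre- (replicate 1), and the other 5 lay between 56.3 and 74.6 CPM. Cre+ libraries averaged 51.5 ± 23.3 CPM (SD, n = 3) and cre- libraries 83.5 ± 37.1 CPM (SD, n = 4), and the log2 fold change of -0.70 ± 0.40 did not pass (adjusted p = 0.373 in edgeR, 0.217 in DESeq2). It was -0.37 without cre+ replicate 1 and -0.34 without cre- replicate 1.

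Nefm (ENSMUSG00000022054, chromosome 14, 68320039 to 68362295, minus strand), the medium chain, was at 14.9, 37.9 and 32.0 CPM in cre+ libraries, against 84.7, 33.6, 54.2 and 37.8 CPM in cre- libraries. The same pair of libraries was lowest and highest as for Nefl, and the groups overlapped. Cre+ libraries averaged 28.3 ± 11.9 CPM (SD, n = 3) and cre- libraries 52.6 ± 23.2 CPM (SD, n = 4). The log2 fold change of -0.90 ± 0.39 did not pass either (adjusted p = 0.252 in edgeR, 0.0983 in DESeq2), and was -0.60 without cre+ replicate 1 and -0.57 without cre- replicate 1. In the annotation Nefl lies inside the span of Nefm on the opposite strand, and the pair share 1152 exon bases, 33.6% of the exons of Nefl and 19.4% of those of Nefm. The paper does not call its library kit directional, and no strand setting is stated, so reads of this stretch cannot be assigned to one chain. Nefm also shares 1117 exon bases with the noncoding gene A230070E04Rik, which had a mean of 134.4 counts per library and a log2 fold change of -1.45 ± 0.51 (adjusted p = 0.179 in edgeR, 0.0484 in DESeq2).

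**Figure D1:**
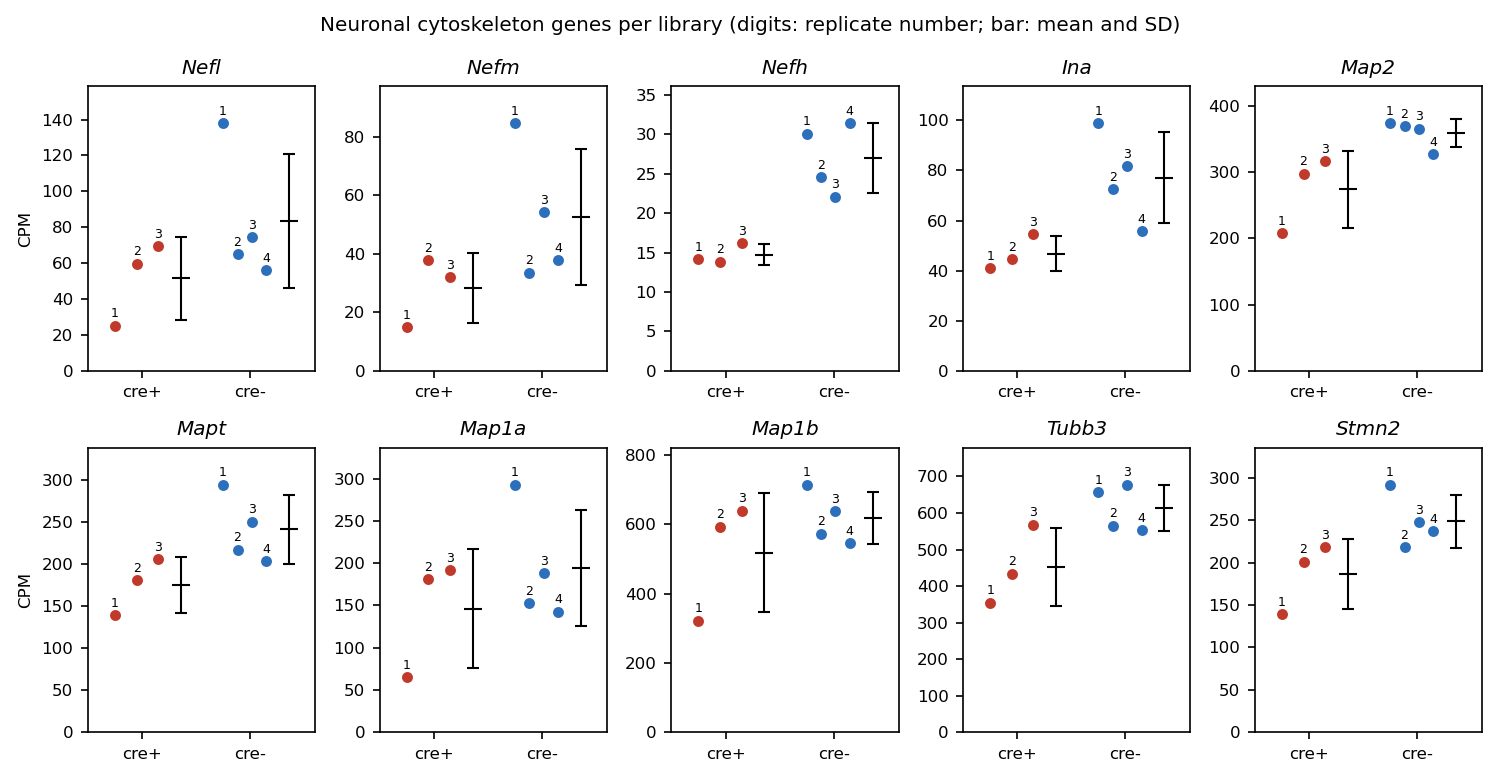
Level of each neuronal cytoskeleton gene (vertical axis, CPM, from 0) in the 3 cre+ libraries (red) and the 4 cre- libraries (blue), with digits giving the replicate and the bar giving the mean and SD. Nefh, Ina and Map2 show no overlap between genotypes, and cre+ replicate 1 is the lowest library for 9 of the 10 genes.

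Map2 (ENSMUSG00000015222, chromosome 1, 66214432 to 66481742, plus strand), the protein of dendritic microtubules, was at 208.1, 297.4 and 316.4 CPM in cre+ libraries, against 373.7, 368.9, 365.5 and 326.8 CPM in cre- libraries. The groups did not overlap, with a gap of 3.19% between the highest cre+ and the lowest cre- library. Cre+ libraries averaged 274.0 ± 57.8 CPM (SD, n = 3) and cre- libraries 358.7 ± 21.5 CPM (SD, n = 4). The log2 fold change of -0.39 ± 0.15 had an exact permutation p of 0.0286 but adjusted p of 0.206 in edgeR and 0.104 in DESeq2, and stood at -0.23 without cre+ replicate 1.

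Mapt (ENSMUSG00000018411, chromosome 11, 104122216 to 104222916, plus strand) encodes tau, which binds microtubules of the axon. It was at 139.4, 180.8 and 206.0 CPM in cre+ libraries, against 294.6, 217.3, 250.7 and 203.3 CPM in cre- libraries. Only cre+ replicate 3 and cre- replicate 4 crossed, by 1.33%. Cre+ libraries averaged 175.4 ± 33.6 CPM (SD, n = 3) and cre- libraries 241.4 ± 40.6 CPM (SD, n = 4), and the log2 fold change was -0.46 ± 0.17 (adjusted p = 0.194 in edgeR, 0.0914 in DESeq2). By exact permutation p was 0.0857.

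Map1a and Map1b, large relatives that each give a heavy and a light chain, had the least difference beside the spread. Map1a (ENSMUSG00000027254, chromosome 2, 121120081 to 121141313, plus strand), the form that predominates in mature neurons, was at 65.3, 181.3 and 192.0 CPM in cre+ libraries, against 292.8, 153.0, 188.0 and 142.5 CPM in cre- libraries. Apart from the lowest cre+ and the highest cre- library, its values mixed across genotypes. Cre+ libraries averaged 146.2 ± 70.3 CPM (SD, n = 3) and cre- libraries 194.1 ± 68.6 CPM (SD, n = 4), and the log2 fold change of -0.41 ± 0.39 (adjusted p = 0.606 in edgeR) was -0.06 without cre+ replicate 1 and -0.14 without cre- replicate 1. Map1b (ENSMUSG00000052727, chromosome 13, 99557954 to 99653048, minus strand), the form abundant in growing axons, was at 321.6, 592.9 and 638.7 CPM in cre+ libraries, against 713.9, 572.6, 637.6 and 544.6 CPM in cre- libraries. Only cre+ replicate 1 lay outside the range of the other genotype on the low side, and the averages were 517.7 ± 171.4 CPM in cre+ (SD, n = 3) and 617.2 ± 75.3 CPM in cre- libraries (SD, n = 4). Its log2 fold change of -0.25 ± 0.23 (adjusted p = 0.585 in edgeR) rested on cre+ replicate 1, since without that library it was -0.01 in edgeR and 0.0038 in DESeq2. Of their exon bases, Map1a shares 2.53% with Ppip5k1 (log2 fold change -0.32 ± 0.12) and Map1b 1.97% with the noncoding gene Gm26559, each on the opposite strand.

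Tubb3 (ENSMUSG00000062380, chromosome 8, 124138163 to 124148754, plus strand), the neuronal beta-tubulin recognized by the antibody TuJ1, was at 355.0, 433.8 and 568.3 CPM in cre+ libraries, against 657.7, 565.5, 677.5 and 552.8 CPM in cre- libraries. The third cre+ library lay within the cre- range and the other two below it. Cre+ libraries averaged 452.4 ± 107.8 CPM (SD, n = 3) and cre- libraries 613.4 ± 63.4 CPM (SD, n = 4), and the log2 fold change was -0.44 ± 0.17 (adjusted p = 0.205 in edgeR, 0.0916 in DESeq2, exact permutation p = 0.0857). Stmn2 (ENSMUSG00000027500, chromosome 3, 8574420 to 8626666, plus strand), a stathmin of growth cones that binds tubulin, was at 139.5, 201.1 and 218.3 CPM in cre+ libraries, against 291.6, 218.0, 247.5 and 237.2 CPM in cre- libraries. Its groups crossed by 0.139%, between cre+ replicate 3 and cre- replicate 2. Cre+ libraries averaged 186.3 ± 41.4 CPM (SD, n = 3) and cre- libraries 248.6 ± 31.2 CPM (SD, n = 4), and the log2 fold change was -0.42 ± 0.17 (adjusted p = 0.221 in edgeR, 0.126 in DESeq2, exact permutation p = 0.0571), or -0.25 without cre+ replicate 1.

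Over the list, the median log2 fold change was -0.45, against -0.04 over the 21542 genes tested. All 10 genes lay below 0, as did 54.0% of all genes tested, except with libraries scaled to pan-neuronal genes, where Nefh (-0.04) and Nefm (-0.11) alone lay below 0. That scaling moved the median of all genes to 0.82, and the median of the 10 genes to 0.34. At an adjusted p under 0.05, edgeR called 0 of the 10 genes, and 0.0% of all genes lower, with a smallest adjusted p of 0.0939. Before adjustment, 6 of the 10 genes had p under 0.05 and were lower (Nefh, Ina, Mapt, Tubb3, Map2 and Stmn2) and 0 were higher, against 9.75% of all genes lower and 10.2% higher. DESeq2 called 2 of the 10 genes lower and 0 higher, against 3.03% lower and 3.71% higher of 29539 genes. Only 16345 of those genes had an adjusted p, so the shares among genes that could be called were larger. Before adjustment DESeq2 gave 7 of the 10 a p under 0.05, all lower, against 9.47% of its genes lower by the same rule. The groups did not overlap, with cre+ lower, for 3 of the 10 genes, against 9.72% of all genes, and for 0 with cre+ higher, against 8.94%. These genes share libraries and cells and are not independent of each other.

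**Figure D2:**
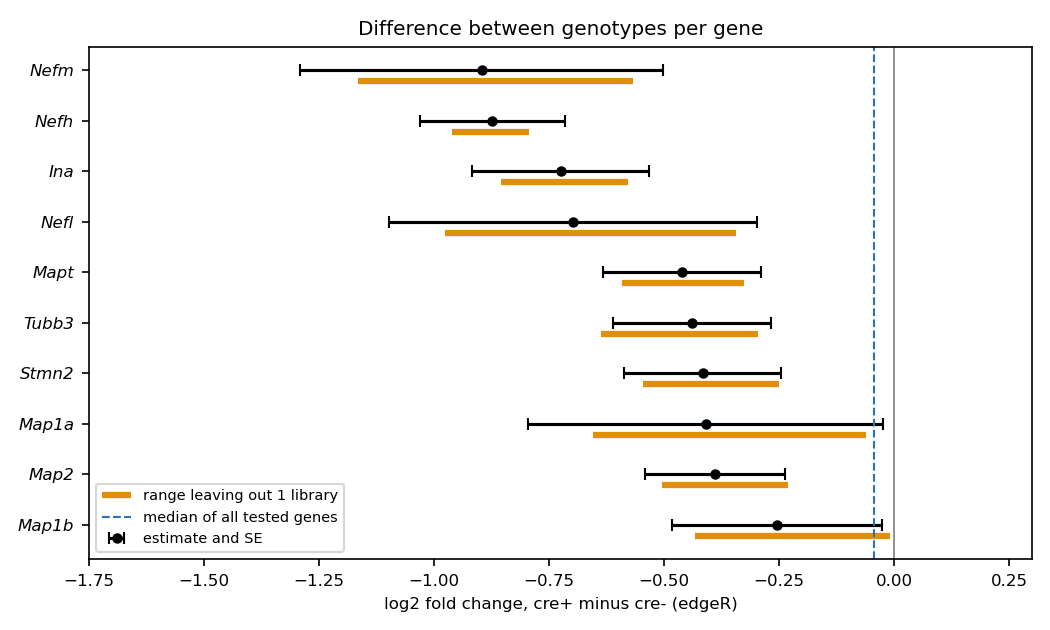
Log2 fold change (horizontal axis, cre+ minus cre-, edgeR) of each neuronal cytoskeleton gene with its SE (black), the range when a library at a time was left out (orange), and the median of all genes tested (dashed, -0.04). All 10 estimates lie below 0 with TMM scaling, and the ranges of Map1a and Map1b reach -0.06 and -0.01. When scaled to pan-neuronal genes, a choice made after seeing the data, 8 of the 10 lie above 0, as does the median of all genes (0.82).

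A pair of libraries carried much of the spread. Cre+ replicate 1 was the lowest library for 9 of the 10 genes, all but Nefh, and cre- replicate 1 was the highest for 8 of them, all but Nefh and Tubb3. Relative to the other cre+ libraries, cre+ replicate 1 held 0.350 times their mean for Map1a, 0.390 times for Nefl and 0.427 times for Nefm, but 0.943 times for Nefh. Without cre+ replicate 1 the median log2 fold change of the list was -0.31, and 2 of the 10 genes were lower at an unadjusted p under 0.05 in edgeR, against 7.71% of all genes in that fit. Without cre- replicate 1 the median was -0.36, also with 2 genes, against 9.05% of all genes. Without cre- replicate 3 the count was 2 as well, against 6.98%.

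Other neuronal genes, outside the cytoskeleton lists described here, were lower in the same libraries. Set against the average of the cre- libraries, the 10 cytoskeleton genes had a mean log2 level of -1.08, -0.40 and -0.26 in cre+ replicates 1 to 3, and of 0.37, -0.18, 0.02 and -0.22 in cre- replicates 1 to 4. That of 18 pan-neuronal genes was -1.50, -0.57 and -0.36 in cre+ libraries, against 0.43, 0.00, 0.03 and -0.46 in cre- libraries. The 10 endothelial markers ran the other way, at 1.01, 0.46 and 0.46 in cre+ libraries, against -0.08, -0.17, -0.10 and 0.34 in cre- libraries. The 3 cre+ libraries were thus low in both neuronal lists and high in endothelial markers. Among the cre- libraries only replicate 4 showed this, and replicate 2, nearly as low in the cytoskeleton genes, was not low in pan-neuronal genes and had the lowest endothelial mean of all 7 libraries.

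**Figure D3:**
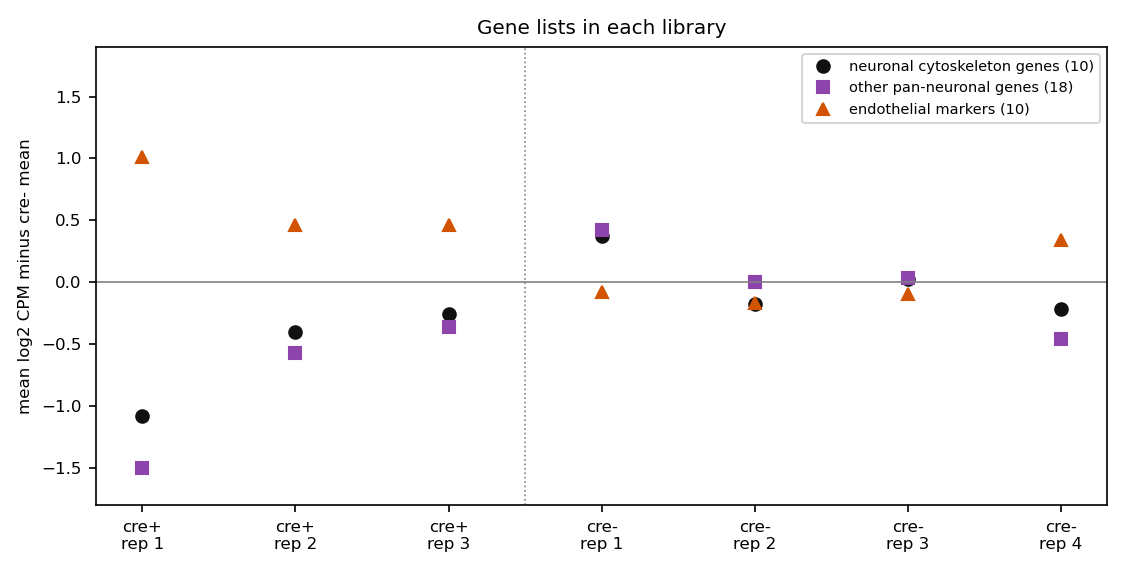
Mean log2 CPM of 3 gene lists in each library, minus the mean of the cre- libraries (vertical axis), for the 10 neuronal cytoskeleton genes (circles), 18 other pan-neuronal genes (squares) and 10 endothelial markers (triangles). In cre+ replicate 1 the 3 lists stand at -1.08, -1.50 and 1.01, farther from 0 than in any other library.

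Of the 18 pan-neuronal genes, 12 had p under 0.05 before adjustment and were lower, 0 were higher, and DESeq2 called 7 lower. Their median log2 fold change was -0.75 (0.02 when scaled to themselves, and -0.46 without cre+ replicate 1), with Snhg11, a neuronal noncoding RNA, at -1.59 ± 0.38, and the RNA-binding protein genes Elavl3 and Elavl4 at -0.56 ± 0.17 and -0.53 ± 0.17. Their summed level was 1932 to 4083 CPM in cre+ libraries, against 3888 to 7011 CPM in cre- libraries. Of 10 markers of immature neurons, 9 were lower at unadjusted p under 0.05 and 7 were called by DESeq2, with a median of -0.47 (0.34 when scaled to pan-neuronal genes). The lists of endothelial, mural, fibroblast, astrocyte, oligodendrocyte and microglia markers had medians above 0 with TMM factors, library totals and pan-neuronal scaling, whereas that of oligodendrocyte precursor markers was 0.03 with TMM factors and -0.06 with library totals. Endothelial markers summed to 12144 to 17837 CPM in cre+ libraries, against 7654 to 10978 CPM in cre- libraries, and DESeq2 called 8 of 10 higher. DESeq2 also called 6 of 10 mural, 4 of 10 fibroblast, 4 of 10 astrocyte, 3 of 10 oligodendrocyte, 1 of 10 oligodendrocyte precursor and 0 of 10 microglia markers higher, and edgeR called none of them after adjustment. The oligodendrocyte precursor call was Cspg4, which is also counted among the mural calls, since some lists share genes. At unadjusted p under 0.05 the microglia count was also 0. By the same rule 9.75% of all genes were lower and 10.2% higher, and DESeq2 called 3.03% lower and 3.71% higher. The median of all genes was 0.82 when scaled to pan-neuronal genes. Scaled to the pan-neuronal genes, the 10 cytoskeleton genes had adjusted p of 0.374 to 0.956. The part of cell composition in the levels of the cytoskeleton genes was not tested.

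Ratios between cytoskeleton genes within a library do not depend on scaling, and none of the 6 compared differed between genotypes by an exact two-sided permutation test (adjusted p = 0.943 for each over the 6). The log2 ratio of Nefh to Nefl was -1.68 ± 0.74 (SD, n = 3) in cre+ libraries and -1.55 ± 0.57 (SD, n = 4) in cre- libraries. As a plain ratio it was 0.562, 0.232 and 0.233 in cre+ libraries, against 0.218, 0.377, 0.296 and 0.558 in cre- libraries, so that it varied by more than 2-fold within each genotype. The log2 ratio of Nefm to Nefl was -0.85 ± 0.24 in cre+ and -0.67 ± 0.21 in cre- libraries, and that of Ina to Nefl -0.02 ± 0.63 and -0.05 ± 0.29.

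Tau to Map2, the axonal to the dendritic protein, had a log2 ratio of -0.64 ± 0.07 in cre+ and -0.58 ± 0.18 in cre- libraries, a difference of -0.05 (exact permutation p = 0.714). The plain ratio was 0.670, 0.608 and 0.651 in cre+ libraries, against 0.788, 0.589, 0.686 and 0.622 in cre- libraries, the tightest of the 6 within cre+. Stmn2 to Tubb3 had a log2 ratio of -1.28 ± 0.15 in cre+ and -1.31 ± 0.13 in cre- libraries. Map1a to Map1b was -1.92 ± 0.33 in cre+ and -1.72 ± 0.30 in cre- libraries, with cre+ replicate 1 lowest (plain ratio 0.203) and cre- replicate 1 highest (0.410). With 7 libraries these tests leave room for differences of the size of the spread.

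Levels were compared between genes per kilobase of exon (union of GENCODE M39 exons, in CPM per kb). Tubb3 stood highest, at 140.9 ± 33.6 in cre+ and 191.1 ± 19.7 in cre- libraries (SD, n = 3 and n = 4). Stmn2 (32.2 ± 7.16 in cre+, 43.0 ± 5.40 in cre-) and Map1b (31.4 ± 10.4 in cre+, 37.4 ± 4.56 in cre-) followed. On this scale the pair differed by less than the SD of either in cre+ libraries, but by more in cre- libraries. Per kilobase of the canonical transcript the pair stood farther apart. There Stmn2 was at 87.1 in cre+ and 116.2 in cre- libraries, and Map1b at 43.5 in cre+ and 51.9 in cre- libraries. Then came Nefl at 15.05 ± 6.80 in cre+ and 24.4 ± 10.8 in cre-, Ina at 14.1 ± 2.09 and 23.3 ± 5.45, Map2 at 13.2 ± 2.78 and 17.2 ± 1.03, Mapt at 12.2 ± 2.35 and 16.8 ± 2.84, and Map1a at 11.99 ± 5.76 and 15.9 ± 5.63, each cre+ before cre-. From Nefl to Map1a, neighbours in this order differed by less than the SD of either in cre+ libraries. The same held in cre- libraries except between Ina and Map2, which differed by more. Nefm (4.75 ± 2.01 in cre+, 8.85 ± 3.90 in cre-) and Nefh (3.62 ± 0.32 in cre+, 6.63 ± 1.09 in cre-) stood lowest. The order was the same in both genotypes, but per kilobase of the canonical transcript Map2 and Mapt moved above Nefl and Ina.

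Other cytoskeleton genes were mixed. The shares over all genes were 9.75% lower and 10.2% higher at unadjusted p under 0.05, and DESeq2 called 3.03% lower and 3.71% higher. Of 9 further intermediate filament genes, 6 were higher and 2 lower at unadjusted p under 0.05, and DESeq2 called 5 higher and 2 lower (median log2 fold change 0.48). The higher ones included Vim (0.63 ± 0.15), the filament of vascular and glial cells, and Lmna (0.45 ± 0.11), a nuclear lamin, and the lower ones Lmnb1 (-0.43 ± 0.10), another lamin. Prph, the peripheral neuron filament, had -0.35 ± 0.42. The difference between the lists was not tested.

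Of 13 other tubulin genes, 0 were lower and 1 higher at unadjusted p under 0.05, Tubb4b at 0.43 ± 0.19, and DESeq2 called 0 of them (median -0.25, or 0.56 when scaled to pan-neuronal genes and -0.13 without cre+ replicate 1). At that p, 9.75% of all genes were lower and 10.2% higher. Scaled to pan-neuronal genes, the median of all genes was 0.82. Tubb2b had -0.38 ± 0.18 and Tuba4a -0.73 ± 0.35. The 3 other stathmins, Stmn1, Stmn3 and Stmn4, had -0.43 ± 0.18, -0.60 ± 0.26 and -0.56 ± 0.24 (median -0.56, or -0.34 without cre+ replicate 1), beside -0.42 ± 0.17 for Stmn2, and DESeq2 called 0 of the 4. On the pan-neuronal scale Stmn1, Stmn3 and Stmn4 had a median of 0.25. Of 23 other microtubule proteins, 11 were lower and 1 higher at unadjusted p under 0.05, and DESeq2 called 4 lower and 1 higher (median -0.34, or 0.51 when scaled to pan-neuronal genes). Dclk2 (-0.63 ± 0.16) and Dclk1 (-0.58 ± 0.19), doublecortin-like kinases, and Crmp1 (-0.47 ± 0.14), a collapsin response mediator, led these by p. Of 14 enzymes that modify or sever microtubules, 6 were lower and 0 higher at unadjusted p under 0.05, and DESeq2 called Atat1, the tubulin acetyltransferase, at -0.55 ± 0.14 (median -0.22, or 0.62 when scaled to pan-neuronal genes).

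Of 20 genes of axonal transport motors, 5 were lower and 2 higher at unadjusted p under 0.05, and DESeq2 called the 2 higher ones, the kinesins Kif5b (0.57 ± 0.10) and Kif1c (0.68 ± 0.17). Kif5a, a further kinesin, had 0.60 ± 0.36 and was called by neither edgeR nor DESeq2. The median of the 20 genes, 14 of them below 0, was -0.16 (0.71 when scaled to pan-neuronal genes, and -0.07 without cre+ replicate 1). Among all genes, 9.75% were lower and 10.2% higher at unadjusted p under 0.05, and the median scaled to pan-neuronal genes was 0.82. Of 10 genes of the membrane skeleton and axon initial segment, 4 were lower and 1 higher by the same rule, with DESeq2 calling 4 lower and 1 higher (median -0.47, or 0.30 when scaled to pan-neuronal genes and -0.19 without cre+ replicate 1). Trim46, which bundles microtubules at the initial segment, had -0.91 ± 0.15, Sptbn4, its beta-spectrin, -1.25 ± 0.28, and Sptbn1, a widely expressed beta-spectrin, 0.61 ± 0.15. Of 10 kinase genes that act on tau and neurofilaments, 3 were lower at unadjusted p under 0.05, the kinase Cdk5 (-0.31 ± 0.09) and its activators Cdk5r1 (-0.49 ± 0.18) and Cdk5r2 (-1.08 ± 0.39), and DESeq2 called Cdk5 and Cdk5r2 lower (median of the 10 -0.15, or 0.71 when scaled to pan-neuronal genes).

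**Figure D4:**
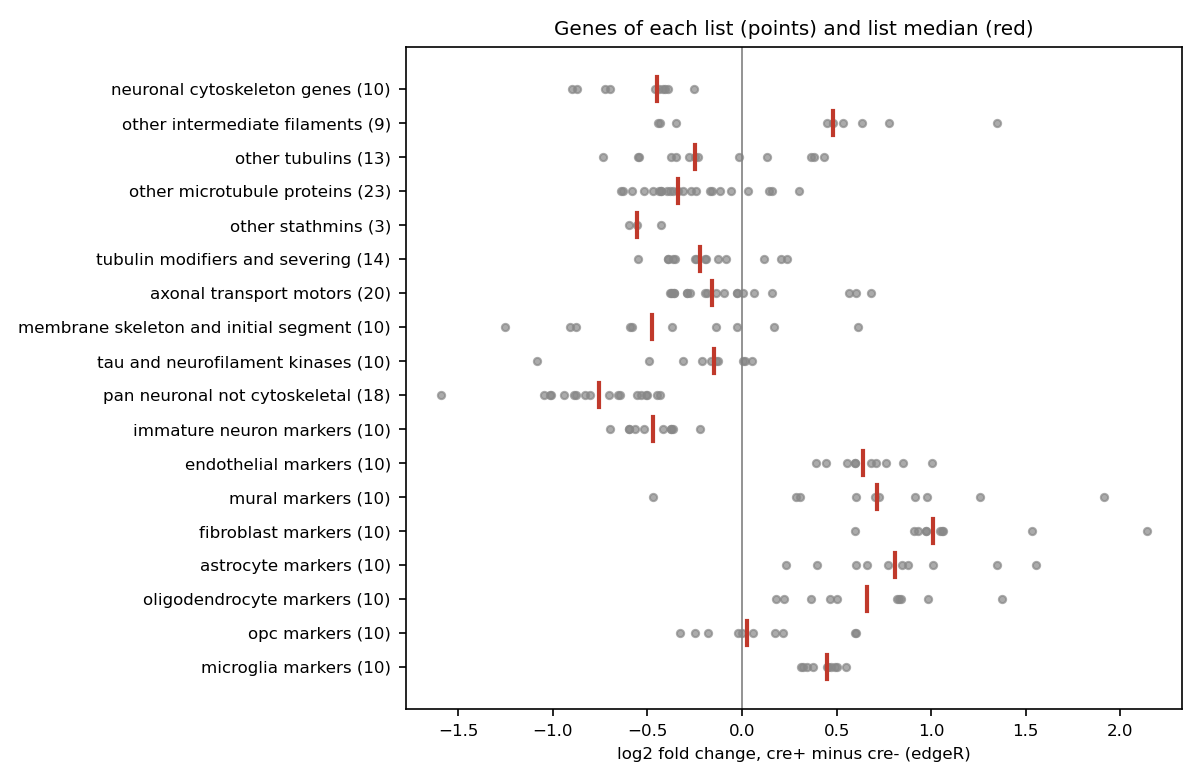
Log2 fold change (horizontal axis, cre+ minus cre-, edgeR with TMM scaling) of each gene (grey points) and the median (red) of the neuronal cytoskeleton genes and of 17 other lists, with the number of genes tested in brackets (opc, oligodendrocyte precursor). The 10 neuronal cytoskeleton genes lie between -0.90 and -0.25 around a median of -0.45, and the other pan-neuronal genes have a median of -0.75. When scaled to pan-neuronal genes, the median of the 10 is 0.34 and that of all genes 0.82.

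Among 11284 other genes with a mean of at least 10 CPM, the profile over the 7 libraries nearest to the mean of the 10 cytoskeleton genes was that of Gng3, a G-protein gamma subunit, with a root mean square distance of 0.044 on the log2 scale. It was at 34.4, 56.1 and 62.9 CPM in cre+ libraries, against 95.4, 68.9, 74.9 and 68.2 CPM in cre- libraries. Next came 6330403K07Rik (0.046), the formin Fmn2 (0.067), the anchoring protein gene Akap6 (0.070) and Gp1bb (0.072). Among the 10 genes themselves, Mapt (0.109) and Stmn2 (0.118) lay nearest to their common profile and Nefh (0.333) and Nefm (0.328) farthest from it.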

How the data were processed

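RNA of isolated brain neurons was sequenced as poly(A) libraries from 3 cre+ and 4 cre- mice, and groups and replicate numbers were taken from the labels. Littermates are the replicates, so p-values measure the spread between libraries, in which animal and cell isolation cannot be told apart. The submitters' processing notes name fastp, FastQC, STAR, SAMtools, StringTie, DESeq2 and GRCm39. Their versions, the annotation and whether strand was used are not given in the sources read. The paper names the NEBNext Ultra II RNA kit for the libraries and does not call it directional. The authors deposited whole-number counts per gene, which were used, and a normalized version, which was not. Of 46382 rows, 49 repeats of a symbol were dropped, leaving 46333 genes, and 99.4% of 35506 Ensembl identifiers were found in GENCODE M39. Totals were 68213223 to 94376841 counts per library. No pair of libraries of the same genotype agreed within sampling noise, and pairs across genotypes were not compared. Header codes differ between the libraries of the genotypes, and what they mean is not given.

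Counts were tested with edgeR 4.0.16 in R 4.3.3 (quasi-likelihood F-test, genotype alone, TMM factors, filterByExpr, robust). P-values were adjusted by Benjamini-Hochberg over all 21542 genes tested, at a threshold of 0.05. DESeq2 1.42.0, the study's test, took the 29539 genes that had any count, and limma 3.58.1 (voom) was a further alternative. Single values were also tested by exact two-sided permutation over 35 splits. Log2 fold changes are cre+ minus cre-, with SE unless marked SD. The tests were checked on simulated data. The other alternatives were RLE, upper-quartile and total-count scaling, both filters on low counts, a replicate block and leaving out each library. Scaling to pan-neuronal genes was chosen after seeing the data. Members and lists were chosen with earlier results of these data known. Named are all members, up to 3 genes of smallest p in lists described, the 5 nearest profiles, Il4ra, genes whose exons overlap those of the neurofilament genes, Ina, Map1a and Map1b, and Rbfox3, Cldn5 and Prph, the last 3 chosen after their values were seen. Kif5a was also chosen after its values were seen, and Syn1 and Snap25 because the paper names them. Promoters came from RefSeq (GRCm38.p6), with 5 of 10 members matched by symbol, and other coordinates are GRCm39. No genome sequence was converted between builds.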

Additional observations from a re-analysis of the deposited data

How the results depend on the processing

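Of 220 values of the 10 genes under the alternatives other than pan-neuronal scaling, 219 lay below 0. The exception was Map1b in DESeq2 without cre+ replicate 1 (0.0038). Scaled to pan-neuronal genes, a choice made after seeing the data that treats the other neuronal genes as unchanged, the log2 fold changes were 0.066 for Nefl, 0.16 for Ina, 0.40 for Map2, 0.37 for Mapt, 0.32 for Map1a, 0.49 for Map1b, 0.36 for Tubb3 and 0.37 for Stmn2. The median of the 10 was then 0.34, with the median of all genes at 0.82, 0 of the 10 lower at unadjusted p under 0.05, and 3105 genes called higher and 35 lower by edgeR over the whole table. With library totals the median of all genes was -0.16 and that of the 10 genes -0.56, and the split of all genes at unadjusted p under 0.05 was 1184 higher and 3399 lower, against 2205 and 2100 with TMM. Leaving out a library at a time, 2 to 6 of the 10 were lower at unadjusted p under 0.05 in edgeR (2 when cre+ replicate 1, cre- replicate 1 or cre- replicate 3 was left out). By that rule 1433 to 2408 of the 21003 to 22608 genes tested were lower. DESeq2 called 1 to 3 of the 10 lower (Nefh alone when cre+ replicate 1, cre+ replicate 2 or cre- replicate 3 was left out). Its fits called 348 to 1318 of 28929 to 29279 genes lower. The median of the 10 ranged from -0.65 to -0.31 in edgeR, and over all genes edgeR called 3 higher and 2 lower without cre+ replicate 1.

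Some log2 ratios changed sign when a library was left out. Nefh to Nefl, -0.13 with all libraries, ranged from -0.55 to 0.11 (0.086 lacking cre+ replicate 2, 0.081 lacking cre+ replicate 3 and 0.108 lacking cre- replicate 4). Ina to Nefl, 0.03 with all, ranged from -0.33 without cre+ replicate 1 to 0.23 and was -0.11 without cre- replicate 1. Mapt to Map2, -0.05 with all, ranged from -0.11 to 0.026, reached without cre- replicate 1. Stmn2 to Tubb3, 0.03 with all, ranged from -0.058 without cre+ replicate 2 to 0.077 and was -0.023 without cre- replicate 3. None of these differences passed its test, and the cause was not tested. Adding 0.5 count changed no ratio's sign.

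Over all genes edgeR called 0 at adjusted p under 0.05, with 2205 higher and 2100 lower at unadjusted p, where DESeq2 called 1095 higher and 895 lower. Replicate numbers did not pair the samples (correlations of deviations of -0.027, -0.0036 and 0.088, with only number 3 best matched to itself). With a replicate block, 5 of the 10 were lower at unadjusted p under 0.05, against 1580 of 21542 genes. In that fit 0 of the 10 passed adjustment, and their median was -0.57. Each of the 10 genes had at least 1021 counts in every library, and the number of animals limits the precision.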
